A study of Mus musculus with 17 samples.

Results

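Tight junctions seal the space between neighbouring epithelial cells, and in the epidermis they form a barrier in the granular layer. Claudins are membrane proteins that polymerise into the junction strands and set their permeability, occludin is a further membrane protein of the strand, junctional adhesion molecule A is an immunoglobulin-type adhesion receptor at the same contacts, and zonula occludens proteins are scaffolds that tie all of them to the actin cytoskeleton. The 6 genes described here were chosen by name from this machinery: the claudin genes Cldn1, Cldn4 and Cldn7, the occludin gene Ocln, F11r, which encodes junctional adhesion molecule A, and Tjp1, which encodes ZO-1. They are 6 of 20572 genes in the count tables, and all 6 had enough counts to be tested in every comparison below. The rule uses the genes' names and no measured value, although it was set with earlier results of these data known. On mm10 the genes lie at chr16:26356645-26371839 (Cldn1), chr5:134945123-134946934 (Cldn4), chr11:69964779-69967886 (Cldn7), chr13:100496504-100552718 (Ocln), chr1:171437561-171464593 (F11r) and chr7:65296165-65527850 (Tjp1).

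The study asked which RNAs the RNA-binding protein Musashi-2 (Msi2) acts on in mouse keratinocytes. Musashi proteins bind short UAG-containing sequences, mostly in 3' UTRs, and are best known for altering the translation or stability of the bound mRNAs. RNA was sequenced from 3 libraries of cells infected with a lentiviral Msi2 shRNA and 3 of cells infected with a scrambled shRNA. Ribosome-protected fragments (footprints), which report how many ribosomes sit on an mRNA, were sequenced from 3 libraries of each kind, and RNA crosslinked to Msi2 was recovered by immunoprecipitation (CLIP) in 5 libraries.

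Both shRNA groups came from the same kind of cell, a C57BL/6 keratinocyte culture from newborn skin. It had become immortal spontaneously during 3 passages on growth-arrested NIH-3T3 J2 fibroblasts and was then grown without them. Both groups received puromycin at 2 ug/ml from 2 days after infection, for 2 days, and were expanded before harvest, and cells for footprints also received cycloheximide, which stalls ribosomes. The labels name 1 Msi2 shRNA and 1 scrambled shRNA, without their sequences, and they do not say whether the replicates were separate cultures, so p-values speak for the spread among libraries only, and that spread may be technical. The labels give no shRNA for the CLIP cells, which were of the same kind and were irradiated with UVC at 200 mJ/cm2. The CLIP libraries differ in RNase dilution (undiluted, 1 in 20 in a low and a high molecular weight cut, 1 in 50 and 1 in 75), and no control immunoprecipitation was analysed here.

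RNA libraries held 9221566 to 26785876 gene counts in Msi2 shRNA cells and 11291571 to 24931967 in scrambled cells. Footprint libraries held 512256 to 2069440 gene counts in Msi2 shRNA cells and 702602 to 2959625 in scrambled cells, so footprint values of low genes carry a larger counting error. Values are given as CPM, counts scaled to a common total of gene counts, with TMM factors, and a gene is said to rise or fall where edgeR's quasi-likelihood test gave a Benjamini-Hochberg adjusted p under 0.05 over all genes tested. Msi2 footprints were 4.53, 0 and 5.12 CPM in Msi2 shRNA cells and 17.1, 16.8 and 18.3 CPM in scrambled cells, a log2 fold change of -2.08 ± 0.41 (SE; adjusted p = 0.000285); the library at 0 could hold up to 5.86 CPM by its floor of 3 counts. Msi2 RNA was 6.55, 6.41 and 5.11 CPM in Msi2 shRNA cells and 6.51, 6.64 and 8.82 CPM in scrambled cells (log2 fold change -0.29 ± 0.21; adjusted p = 0.283), so the knockdown was seen in footprints and did not pass the test in RNA. The median log2 fold change of all genes was 0.00 in RNA and -0.01 in footprints. Reads aligned to several places made up 19.8 to 24.5% of the RNA libraries of Msi2 shRNA cells and 13.4 to 17.4% of those of scrambled cells, and their part in the results was not tested.

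The cells had the markers of their label. The 10 keratinocyte markers summed to 14830 to 16450 CPM of RNA in Msi2 shRNA cells and 17760 to 21400 CPM in scrambled cells; 4 of the 10 rose and 4 fell in Msi2 shRNA cells. Of 9 fibroblast markers, 6 (Col1a2, Col3a1, Pdgfrb, Dcn, Lum and Thy1) had no RNA count in either group, and the list summed to 8.97 to 10.3 CPM in Msi2 shRNA cells and 4.54 to 7.55 CPM in scrambled cells. The 5 endothelial markers summed to 3.37 to 5.09 CPM in Msi2 shRNA cells and 1.33 to 2.48 CPM in scrambled cells, the 5 immune markers to 8.30 to 13.4 CPM in Msi2 shRNA cells and 16.0 to 18.6 CPM in scrambled cells, and the 5 melanocyte markers to 2.08 to 3.77 CPM in Msi2 shRNA cells and 1.54 to 2.31 CPM in scrambled cells. The 4 keratins of simple epithelia (Krt7, Krt8, Krt18 and Krt19) summed to 367 to 382 CPM in Msi2 shRNA cells and 303 to 414 CPM in scrambled cells; Krt8 and Krt18 rose and Krt19 fell. In these bulk libraries, fewer cells of a type and less RNA per cell cannot be told apart, and the part of these markers in the results was not tested.

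In the RNA, 3 of the 6 genes rose in Msi2 shRNA cells (Cldn1, Cldn4 and Tjp1), F11r fell, and Cldn7 and Ocln did not pass the test. Changes were widespread in the transcriptome: 43.8% of the 11117 genes tested passed, with 22% higher and 21.7% lower in Msi2 shRNA cells. The groups did not overlap in the same 4 genes, against 52.9% of all genes tested. The median log2 fold change of the 6 was 0.28.

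Cldn1 encodes the claudin without which the epidermal barrier of mice fails after birth. Its RNA was 50.0, 44.8 and 44.2 CPM in Msi2 shRNA cells and 30.1, 35.7 and 33.1 CPM in scrambled cells. All 3 knockdown libraries lay above all 3 scrambled ones, with means of 46.3 ± 3.18 and 33.0 ± 2.79 CPM (SD, n = 3 each), a log2 fold change of 0.49 ± 0.12 (SE; 95% interval 0.23 to 0.74; adjusted p = 0.00366). Cldn4, a claudin of many epithelia and of the upper epidermal layers, had 245.6, 265.1 and 270.6 CPM of RNA in Msi2 shRNA cells and 176.4, 210.3 and 181.3 CPM in scrambled cells. The groups again did not overlap, with a log2 fold change of 0.46 ± 0.12 (95% interval 0.22 to 0.70; adjusted p = 0.00402); with each library's trend with genomic gene span removed it was 0.69, over 1.5 times as large. Cldn7, a claudin also found along the lateral membrane outside the junction, had 25.9, 20.4 and 26.2 CPM in Msi2 shRNA cells and 22.2, 26.9 and 18.8 CPM in scrambled cells. Its groups overlapped widely, with a log2 fold change of 0.09 ± 0.15 (95% interval -0.23 to 0.41; adjusted p = 0.660).

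Ocln RNA was 11.2, 12.1 and 13.1 CPM in Msi2 shRNA cells and 14.5, 12.6 and 12.7 CPM in scrambled cells. The groups overlapped (log2 fold change -0.12 ± 0.16; adjusted p = 0.556). F11r RNA was 132.0, 134.8 and 130.7 CPM in Msi2 shRNA cells and 178.0, 170.3 and 166.4 CPM in scrambled cells. The replicates of each group lay close together and the groups far apart, and the log2 fold change of -0.37 ± 0.10 (95% interval -0.59 to -0.15; adjusted p = 0.00840) made F11r the one gene of the 6 whose RNA fell.

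Tjp1 RNA was 135.5, 145.2 and 130.3 CPM in Msi2 shRNA cells and 81.3, 69.6 and 96.6 CPM in scrambled cells. The means were 137.0 ± 7.56 and 82.5 ± 13.6 CPM (SD, n = 3 each), 1.67-fold higher in Msi2 shRNA cells (log2 fold change 0.74 ± 0.12, SE; 95% interval 0.48 to 0.99; adjusted p = 0.000179). The RNA calls and directions of these 4 genes held under each of 15 other settings, among them leaving out any 1 library, with adjusted p-values of at most 0.0475. Removing each library's trend with genomic gene span lowered the Tjp1 change to 0.49, by more than 1.5 times, beside 0.50 for Cldn1 and 0.69 for Cldn4; Tjp1 spans 231686 bases of chromosome 7, and the other 5 genes span 1812 to 56215 bases.

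**Figure D1:**
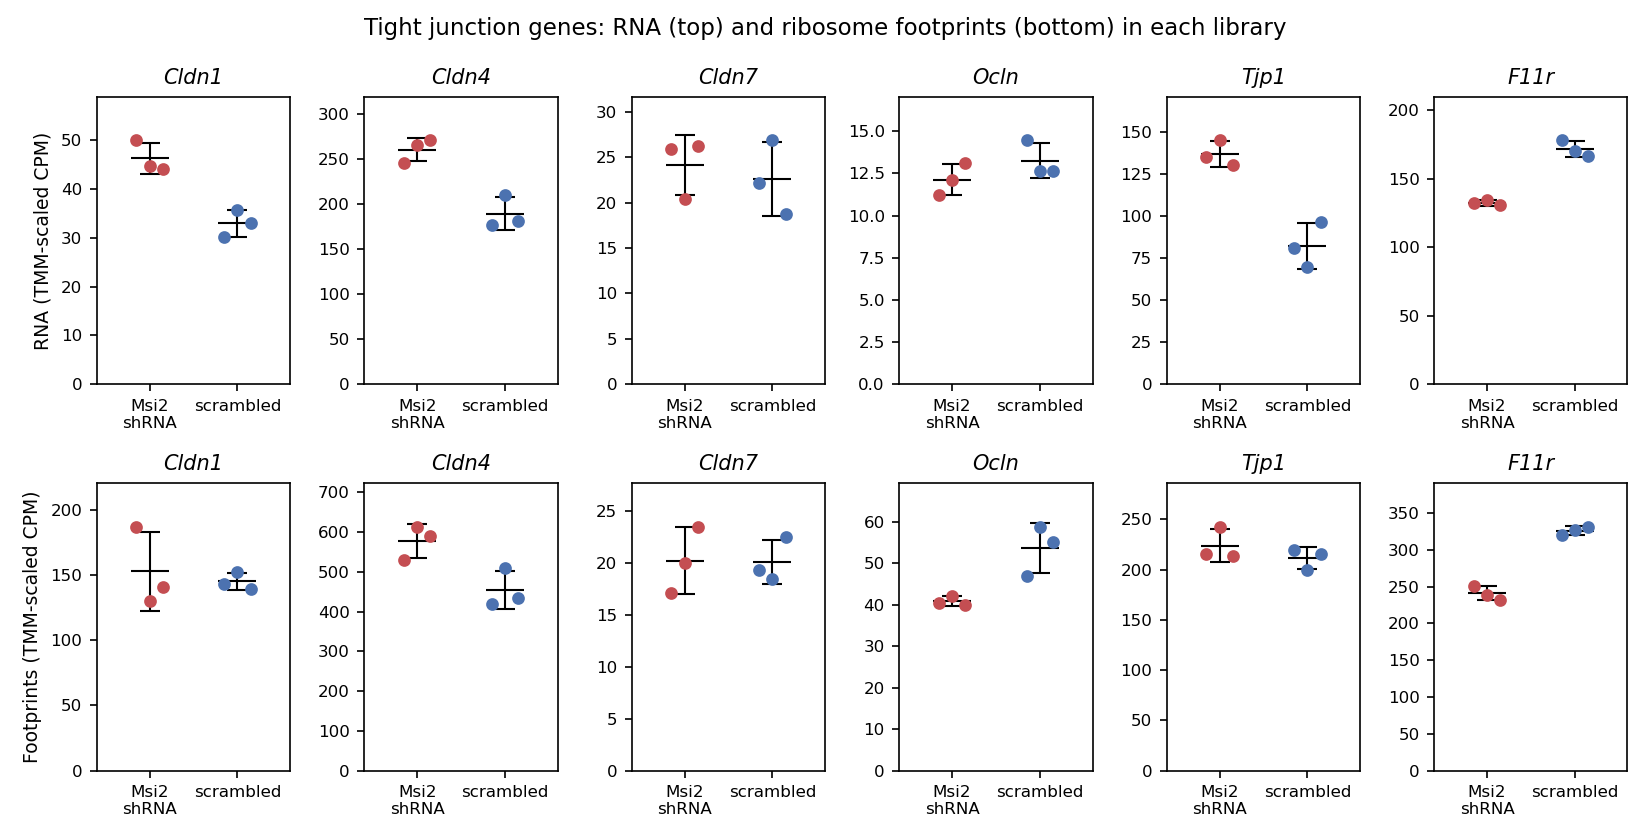
RNA (top) and ribosome footprints (bottom) of the 6 tight junction genes in TMM-scaled CPM, for Msi2 shRNA (left, red) and scrambled (right, blue) libraries, with 1 point per library and bars for the mean and SD (n = 3 each). In RNA the groups are apart for Cldn1, Cldn4, Tjp1 and F11r, and in footprints for Cldn4, Ocln and F11r; Tjp1 footprints overlap although its RNA does not.

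In the footprints, 1 of the 6 genes fell (F11r), none rose and 5 did not pass the test. Of 8969 genes tested, 16.1% passed, with 8.76% higher and 7.38% lower. At an unadjusted p under 0.05, edgeR's quasi-likelihood test counted 1 of the 6 as higher (Cldn4) and 2 as lower (F11r and Ocln). Of all 8969 genes it counted 2527 in either direction. At an adjusted p under 0.05, DESeq2 called 0 of the 6 higher and 1 lower, and limma-voom 1 higher and 1 lower. Over the settings other than leaving out 1 library, 481 to 957 of all genes were called higher and 373 to 802 lower. The groups did not overlap in Cldn4, F11r and Ocln, against 31.4% of all genes tested. The median log2 fold change of the 6 was 0.04.

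F11r footprints were 251.3, 238.7 and 232.3 CPM in Msi2 shRNA cells and 320.1, 326.8 and 331.5 CPM in scrambled cells. The groups were apart, with a log2 fold change of -0.43 ± 0.13 (SE; 95% interval -0.70 to -0.17; adjusted p = 0.0178), beside -0.37 in RNA. The F11r call ended without Msi2 shRNA replicate 1 (adjusted p = 0.0583) and without Msi2 shRNA replicate 3 (0.133), with log2 fold changes of -0.46 and -0.41, where 2 knockdown libraries were left; over all 16 settings the adjusted p ran between 0.00913 and 0.133. Ocln footprints were 40.3, 42.1 and 39.9 CPM in Msi2 shRNA cells and 47.0, 58.8 and 55.0 CPM in scrambled cells. Each knockdown library lay below each scrambled one, but the log2 fold change of -0.40 ± 0.19 (95% interval -0.79 to -0.02) did not pass (adjusted p = 0.159), with 21 counts in the shallowest knockdown library and 39 in the shallowest scrambled one.

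Cldn4 footprints were 528.7, 613.7 and 590.4 CPM in Msi2 shRNA cells and 419.3, 508.5 and 433.1 CPM in scrambled cells. The groups did not overlap, and the log2 fold change of 0.34 ± 0.13 (95% interval 0.08 to 0.60) missed the threshold (adjusted p = 0.0700). It passed under limma-voom (adjusted p = 0.0344), with the trend with gene span removed (0.0200) and without scrambled replicate 2 (0.0344), and over its 16 other settings the adjusted p ran between 0.0200 and 0.262. Cldn1 footprints were 187.3, 130.4 and 141.2 CPM in Msi2 shRNA cells and 143.6, 152.5 and 139.7 CPM in scrambled cells. Msi2 shRNA replicate 1 was high and the other two lay within or below the scrambled range (log2 fold change 0.11 ± 0.15; 95% interval -0.19 to 0.41; adjusted p = 0.686), and without it the log2 fold change was -0.09. Cldn7 footprints were 17.1, 20.1 and 23.5 CPM in Msi2 shRNA cells and 19.3, 18.5 and 22.6 CPM in scrambled cells. The groups overlapped, on 10 to 55 counts a library, and the sign of the log2 fold change (0.01 ± 0.27; adjusted p = 0.983) turned under 5 of 16 settings.

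Tjp1 footprints were 215.0, 242.7 and 213.9 CPM in Msi2 shRNA cells and 219.5, 199.2 and 215.8 CPM in scrambled cells. The groups overlapped and differed by a log2 fold change of 0.07 ± 0.13 (95% interval -0.20 to 0.35; adjusted p = 0.764). The RNA change of 0.74 lay outside that interval.

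**Figure D2:**
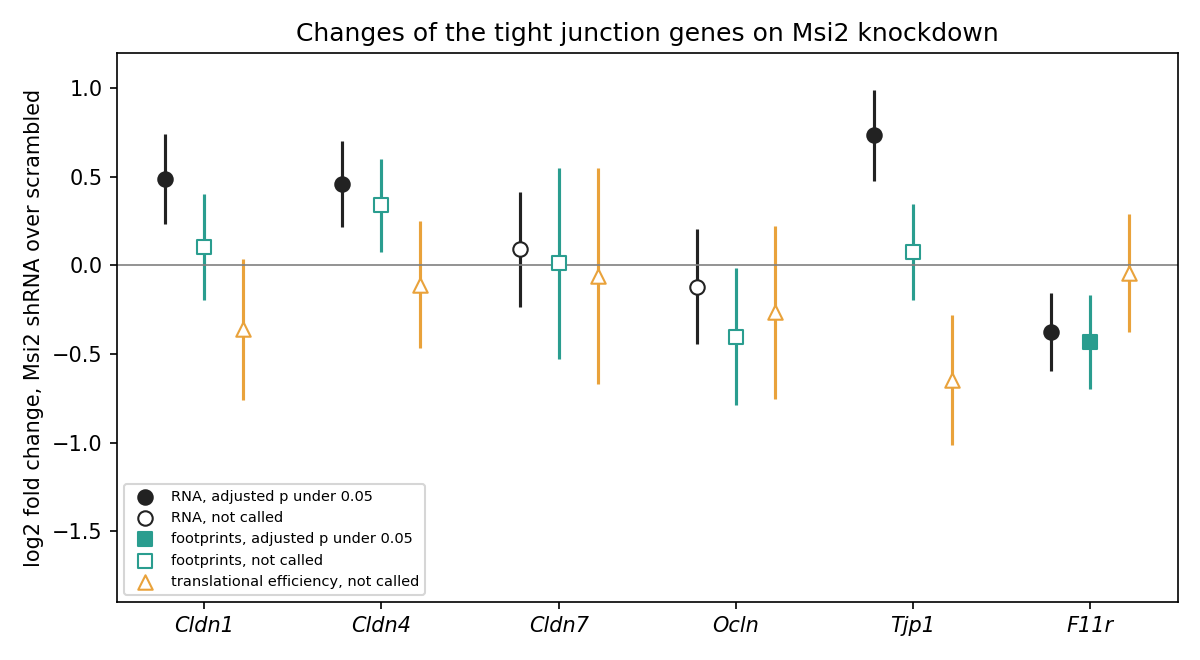
Log2 fold change (Msi2 shRNA over scrambled) of each gene in RNA (black circles), footprints (green squares) and translational efficiency (orange triangles), with 95% intervals of the fit; filled symbols passed the test at an adjusted p under 0.05. Cldn1, Cldn4 and Tjp1 are filled above 0 in RNA and F11r is filled below 0 in both RNA and footprints, while the Tjp1 efficiency of -0.65 lies below 0 and is not filled.

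Translational efficiency sets footprints against RNA, and its change was tested as an assay-by-knockdown interaction in 1 model of the 12 libraries. By edgeR's quasi-likelihood test none of the 6 genes passed, beside 0.203% of the 10821 genes tested (0.129% higher and 0.0739% lower). At an unadjusted p under 0.05 that test counted 1 of the 6, Tjp1, beside 1300 of the 10821 genes. At an adjusted p under 0.05, DESeq2 and limma-voom called 1 each, as lower. Over the settings other than leaving out 1 library, 6 to 78 of all genes were called lower. The change of efficiency of Tjp1 was -0.65 ± 0.18 on the log2 scale (SE; 95% interval -1.01 to -0.28; adjusted p = 0.135 by edgeR's quasi-likelihood test). Tjp1 passed, as lower, under the DESeq2 Wald test (-0.69; adjusted p = 0.0272), under limma-voom (-0.66; 0.0350), with no filter on low counts (-0.71; 0.0349) and without scrambled RNA replicate 3 (-0.86; 0.00649), the scrambled library with the highest Tjp1 RNA. Over all 21 settings its adjusted p ran between 0.00649 and 0.359 and its sign stayed negative; with the trend with gene span removed it was -0.46 (0.243). Cldn1 had a change of -0.36 ± 0.20 (95% interval -0.76 to 0.04; adjusted p = 0.467), and Ocln one of -0.26 ± 0.24 (adjusted p = 0.696). Single libraries moved both by over 1.5 times: Cldn1 was -0.59 without Msi2 shRNA footprint replicate 1, and Ocln was -0.41 without scrambled RNA replicate 1 and -0.15 without scrambled footprint replicate 2. Cldn4 (-0.11 ± 0.18), Cldn7 (-0.06 ± 0.30) and F11r (-0.04 ± 0.16) had adjusted p-values of at least 0.863, and their 95% intervals reached from -0.67 to 0.55 at the widest, in Cldn7.

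The ratio of footprint CPM to RNA CPM is set side by side across genes, because both count reads on the same coding sequence. Any effect of coding length that remains in it was not tested. For Cldn1 the ratio was 3.30 in Msi2 shRNA cells and 4.41 in scrambled cells. For Ocln it was 3.36 in Msi2 shRNA cells and 4.05 in scrambled cells. Tjp1 had 1.63 in Msi2 shRNA cells and 2.57 in scrambled cells, and Cldn4 2.22 in Msi2 shRNA cells and 2.40 in scrambled cells. F11r had 1.82 in Msi2 shRNA cells and 1.90 in scrambled cells, and Cldn7 0.838 in Msi2 shRNA cells and 0.891 in scrambled cells. The median gene had 1.12 in Msi2 shRNA cells and 1.09 in scrambled cells, so 5 of the 6 genes lay above the median gene in both groups and Cldn7 below it. In scrambled cells Cldn1 had a higher ratio than 95.1% and Ocln than 94.2% of the genes, and Cldn7 than 37.4%. The ranges that the libraries allow overlapped between Cldn1 (3.92 to 5.07) and Ocln (3.25 to 4.66) and between Tjp1 (2.06 to 3.16) and Cldn4 (1.99 to 2.88), so neighbours within these pairs cannot be ordered. Tjp1 was ahead of F11r in scrambled cells (2.06 to 3.16 against 1.80 to 1.99), whereas in Msi2 shRNA cells their ranges overlapped (1.47 to 1.86 against 1.72 to 1.92).

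Msi2 crosslinking was listed in the 3' UTRs of 4 of the 6 genes: Cldn1 with 5 regions, Cldn4 with 4, and Tjp1 and F11r with 1 each. Cldn7 and Ocln had none. Of the genes tested in RNA, 10.3% had a region in the same list, a share that was not adjusted for RNA level. The list holds 2671 regions in 1199 genes; 57.1% of those genes had 1 region, 16.1% had 4 or more and 10.8% had 5 or more. None of the 6 genes had a region outside the 3' UTR in the longer list of 4051 regions.

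The region positions are on mm10, and Cldn1, Cldn4 and Tjp1 lie on the minus strand. Those of Cldn1 were chr16:26356642-26356810, chr16:26357932-26358018, chr16:26358020-26358126, chr16:26358570-26358777 and chr16:26358792-26358947. Their summits lay 69, 1345, 1443, 2099 and 2206 bases upstream of the annotated 3' end of the gene. They thus formed a pair of adjacent regions 1 base apart, another pair 14 bases apart, and a single region at the end of the transcript. The Cldn4 regions were chr5:134945122-134945186, chr5:134945522-134945639, chr5:134945674-134945772 and chr5:134945909-134946071, with summits 23, 445, 571 and 862 bases from the 3' end. As in Cldn1, 1 region covered the end of the transcript and the others lay upstream of it. The Tjp1 region was chr7:65297415-65297532, with its summit 1312 bases from the 3' end, and the F11r region, on the plus strand, was chr1:171463346-171463429, with its summit 1215 bases from the 3' end.

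**Figure D3:**
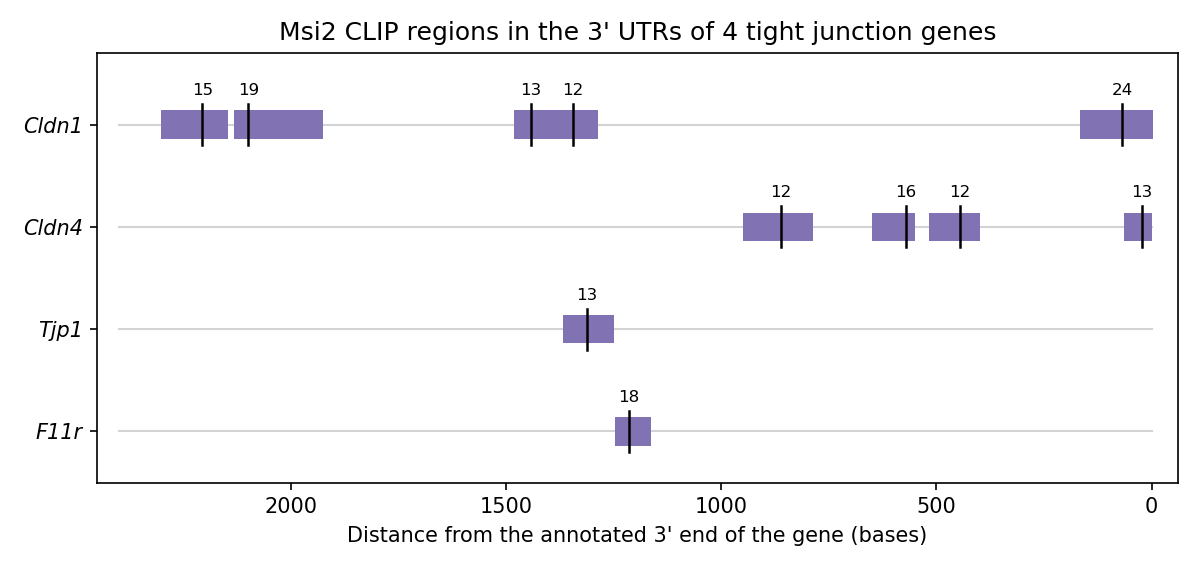
Msi2 CLIP regions (bars) and their summits (lines, with the authors' peak height above) in the 3' UTRs of Cldn1, Cldn4, Tjp1 and F11r, by distance in bases from the annotated 3' end of the gene. Cldn1 and Cldn4 each have a region at the 3' end and others upstream, and the single regions of Tjp1 and F11r lie 1312 and 1215 bases from the end.

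By peak height, most of the regions lay below the median of this list. The heights of 24 and 19 in Cldn1 exceeded 69.6% and 56.1% of all regions, and that of 18 in F11r 53.4%. The authors' peak heights were 24, 12, 13, 19 and 15 in Cldn1 (in the order above), 13, 12, 16 and 12 in Cldn4, 13 in Tjp1 and 18 in F11r. Their median was 13, against 16 over all regions of the list, whose highest was 827. At a height of at least 20, Cldn1 kept 1 region and Cldn4, Tjp1 and F11r none. The regions were 65 to 208 bases wide, with a median of 118 bases, against 162 over all regions. Of the 11, 7 had a read in all 5 libraries, against 33.5% of all regions, and the other 4 had one in 4. Those 4 lacked a read in the undiluted library, the shallowest, with 1954 listed reads. In the 7 regions that library gave 1 to 3 reads each, so the difference rests on few reads.

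Of all reads counted in the listed 3' UTR regions, 250 of 94824 lay in the 11 regions, or 0.264% (exact 95% binomial interval 0.232 to 0.298%). Intervals cover counting error only. A read that spans neighbouring regions can be counted in each. The summed reads exceeded the height in 5 of the 11 regions, 4 of them in Cldn1, and the reason was not tested. The other was the Cldn4 region at the 3' end (18 reads, height 13), 335 bases from its neighbour. Cldn1 had 0.102, 0.146, 0.126, 0.154 and 0.253% of the reads of the undiluted, the low and high molecular weight 1 in 20, the 1 in 50 and the 1 in 75 library. It had reads in all 5, with the highest share in the 1 in 75 library (0.194 to 0.324%). The high molecular weight 1 in 20 library had an interval of 0.0858 to 0.179%. These intervals take each count as a separate read, so for Cldn1 they may be too narrow and do not order its libraries. Cldn4 had 0.358, 0.0451, 0.0448, 0.0423 and 0.0857% in the same order. The undiluted library stood highest, on 7 of 1954 reads (0.144 to 0.737%), above the intervals of all 4 others. Tjp1 had between 1 and 4 reads a library and F11r between 1 and 7, too few to order the libraries. Cldn7 and Ocln had no listed region and therefore could have no listed read. Their lack of listed reads sets no limit on crosslinking to them, since reads elsewhere are not in the lists.

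**Figure D4:**
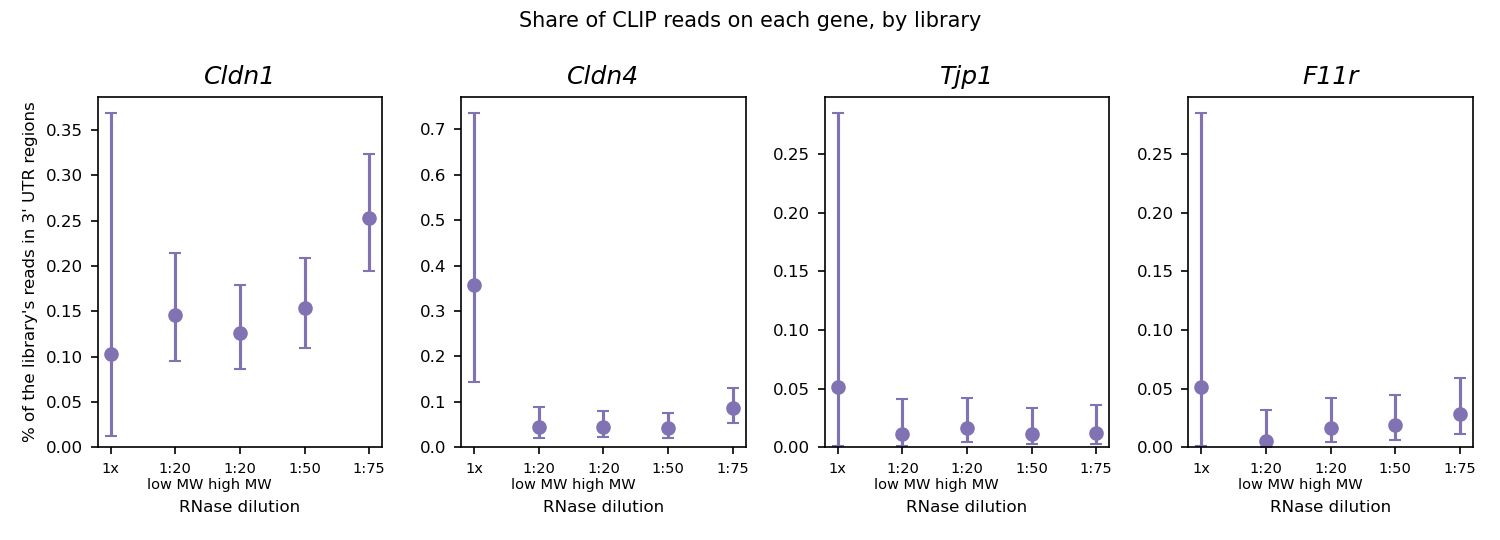
Share of each CLIP library's listed 3' UTR reads (percent) in the regions of Cldn1, Cldn4, Tjp1 and F11r, by RNase dilution, with exact 95% binomial intervals (each panel has its own axis from 0). The undiluted library has the widest intervals and the highest Cldn4 share (0.358%), and the 1 in 75 library the highest Cldn1 share (0.253%).

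Set beside the knockdown, the 4 genes with a region were the 4 whose RNA passed the test, and the 2 without one did not pass. The directions differed among them: Cldn1, Cldn4 and Tjp1 were higher and F11r was lower in Msi2 shRNA cells. With 6 genes, and with 43.8% of all genes called in RNA, nothing particular to these genes is read from this match.

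The 300 bases around the start site (250 before to 50 after) were read for all 6 genes from RefSeq on GRCm38.p6, with 2 starts each for Cldn7 and Ocln, and searched on both strands for 3 motifs chosen after the sequences had been seen. These were TGANTCA, bound by AP-1 factors that act in keratinocyte differentiation, AACCNGGTT, bound by Grainyhead-like factors of surface epithelia, and CACCTG, the E-box bound by Snail factors that repress junction genes. AP-1 matches were found in Cldn4 and F11r, which moved in opposite directions, and are shown with 30 bases each, the motif in capitals, on the strand of the gene. The Cldn4 windows are chr5:134947155-134947184 and chr5:134947074-134947103 (minus strand, motif starting 240 and 158 bases before the start site), and the F11r window is chr1:171437441-171437470 (plus strand, 109 bases before it).
Cldn4 distal: tctaggctggTGACTCAgtgtctgtgtccc
Cldn4 proximal: atactggcgggTGACTCAggggcccaggac
F11r: cctgcgtacggTGAGTCActcatcggagct

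TGANTCA was present in 7.81% of the 32851 promoters of the table. Windows with the E-box CACCTG, or CAGGTG where the match is on the other strand, are shown for the same 2 genes (chr5:134946931-134946960 and chr5:134946906-134946935, minus strand, for Cldn4, and chr1:171437427-171437456, plus strand, for F11r, where the window overlaps that of the AP-1 match). The E-box was also found at 2 places in the promoters of Cldn7 and at 2 in those of Ocln, and in 20.2% of all promoters.
Cldn4 upstream: ctttaactgcagCACCTGtggccgcccttt
Cldn4 downstream: cctttcttgttgCAGGTGcaggcaggaaag
F11r: agttcggggttgCACCTGcgtacggtgagt

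AACCNGGTT was in none of the promoters of the 6 genes and in 0.271% of all promoters, and Cldn1 and Tjp1 held none of the 3 motifs. These are matches of letters and no measure of binding.

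Within the claudin family few members were detected in these keratinocytes. Of 22 claudin genes in the table, 6 passed the filter on low counts in RNA and footprints (Cldn1, Cldn4, Cldn7, Cldn12, Cldn23 and the row named Cldn25), and none of the other 16 had more than 15 RNA counts over all 6 libraries. The name Cldn25 is also an older symbol of another gene, Cldnd1, so that row may hold either. In RNA, Cldn12 (log2 fold change 0.06, adjusted p = 0.806), Cldn23 (0.67, 0.144) and Cldn25 (-0.12, 0.406) did not pass. In footprints they did not pass either (adjusted p of at least 0.0981). Cldn1 and Cldn4 were thus the 2 of these 6 rows whose RNA passed, beside 43.8% of all genes tested in RNA.

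Around the 6 genes, a list of 64 tight junction genes (strand proteins, adhesion receptors, scaffolds, polarity proteins and regulators) held 40 genes tested in RNA and 37 in footprints. In RNA, 14 of the 40 rose and 3 fell; apart from the 6 genes described above it was 11 of 34 higher and 2 lower, with a median log2 fold change of 0.11, beside 22% higher and 21.7% lower among all genes. In footprints, 10 of 37 rose and 2 fell; apart from the 6 genes, 10 of 31 rose and 1 fell, with a median of 0.05, beside 8.76% and 7.38% of all genes. By edgeR's quasi-likelihood test none of the 40 genes passed for translational efficiency. At an unadjusted p under 0.05 that test counted 2, Tjp1 (lower) and Marveld2 (higher), beside 1300 of all 10821 genes tested. At an adjusted p under 0.05, DESeq2 and limma-voom each called 1, as lower, where 6 to 78 of all genes were called lower over the settings other than leaving out 1 library. The footprint count changed with the tool and with single libraries: 5 genes of the list rose under DESeq2, and 6 each without Msi2 shRNA replicate 3 or without scrambled replicate 1. Counts over all genes changed too. In footprints 786 genes were called higher in the main fit and 481 under DESeq2's Wald test. Leaving out 1 library gave 463 to 885.

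Among scaffolds and their partners, Cgn (cingulin, a cytoplasmic protein that binds ZO-1) had the smallest p of the list in both assays. Its RNA was 31.9, 38.1 and 27.7 CPM in Msi2 shRNA cells and 10.4, 8.08 and 11.7 CPM in scrambled cells, a log2 fold change of 1.70 ± 0.17 (SE; adjusted p = 1.32e-06). Its footprints were 55.9, 80.2 and 63.4 CPM in Msi2 shRNA cells and 15.8, 17.1 and 26.8 CPM in scrambled cells, a log2 fold change of 1.80 ± 0.22 (adjusted p = 9.03e-08). RNA and footprints of Cgn thus rose by about the same factor, with an efficiency change of 0.12 ± 0.29 (adjusted p = 0.917), where Tjp1 had -0.65. Mllt4 (afadin, an actin-binding adaptor of nectins) rose by a log2 fold change of 1.13 in RNA (adjusted p = 5.58e-06) and 0.90 in footprints (1.19e-05). On the same scale Amotl2, an angiomotin family scaffold, rose by 0.88 in RNA (2.64e-05) and 0.89 in footprints (7.99e-06). Tjap1, a tight junction associated protein, rose by 0.74 in RNA (9.26e-05) and 0.88 in footprints (0.0108). Its footprint call ended under some settings, among them the DESeq2 Wald test (0.0893). Pard6b, an adaptor of the Par polarity complex, rose by 0.75 in RNA (0.00051) and 0.76 in footprints (0.00212).

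At the membrane, Lsr (an angulin that marks contacts of several cells) rose by a log2 fold change of 0.63 ± 0.15 in footprints (SE; adjusted p = 0.00288), with 1 CLIP region in its 3' UTR. Its RNA rise of 0.43 (adjusted p = 0.0161) ended with the replicate block (0.0533) and without 1 of 3 libraries, Msi2 shRNA replicate 1 (0.0805), Msi2 shRNA replicate 3 (0.106) or scrambled replicate 1 (0.122). Pard6a, a further adaptor of the Par complex, fell in RNA, as F11r did (log2 fold change -0.65 ± 0.16; adjusted p = 0.00370).

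**Figure D5:**
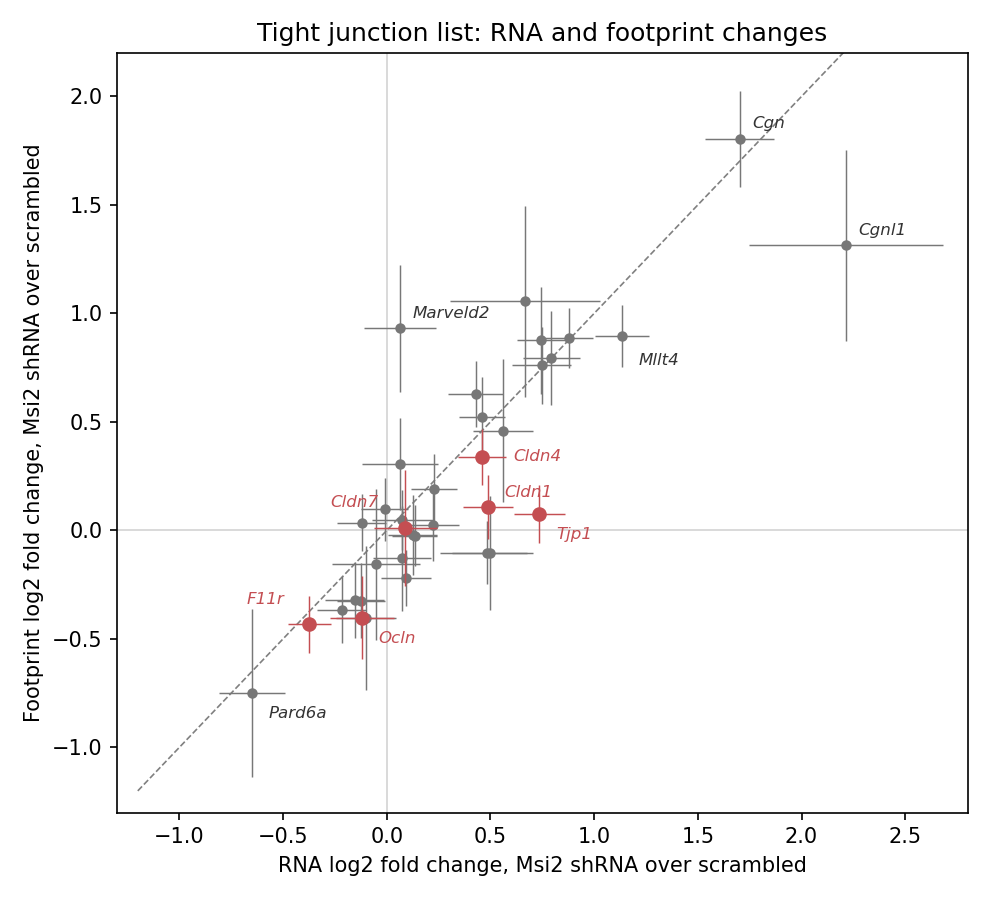
Log2 fold change (Msi2 shRNA over scrambled) in RNA (x) and footprints (y) for 36 tight junction list genes tested in both, with standard errors; red points are the 6 genes described in detail, and the dashed line marks equal change. Cgn lies near the line at 1.70 and 1.80, Tjp1 lies below it (0.74 and 0.07), and Marveld2 lies above it (0.06 and 0.93).

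Of the 64 genes, 12 had a 3' UTR region, 8 of them beside the 4 above. Cxadr, an adhesion receptor of the same immunoglobulin family as F11r, had 10 regions with heights of up to 87. Amotl1 and Epcam had 2 each, and Lsr, Pard6g, Prkci and Ybx3, the ZO-1 partner listed as Csda in the count tables, had 1 each. Of those named here, Lsr rose in both assays. Cxadr had log2 fold changes of 0.08 in RNA and 0.05 in footprints, Epcam -0.12 and 0.04, Pard6g 0.13 and -0.02, and Prkci 0.22 and 0.02 (adjusted p-values of at least 0.164). Amotl1 had 0.48 in RNA (adjusted p = 0.102) and -0.10 in footprints (0.698), and Ybx3 had 0.09 in RNA (0.562) and -0.22 in footprints (0.267).

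The 6 genes did not vary as 1 group over the 12 RNA and footprint libraries. After each assay's mean was taken off, log2 CPM of Tjp1, Cldn1 and Cldn4 varied together (Pearson's r of 0.59 to 0.65 between pairs), F11r and Ocln varied together (0.77), and F11r ran opposite to Cldn4 (-0.89). Cldn7 had a coefficient of at most 0.32 with any other. All these libraries share the knockdown contrast, so the coefficients describe it as well as the spread within groups. Among 8056 genes, the ones most like each member by this measure were Zfp462 (0.975), Atad2 and Nufip2 for Tjp1, and Idh3b (0.982), Ndfip1 and Slc25a12 for F11r. For the claudins they were Ankrd10 (0.978), Wdr62 and Cluh for Cldn4, Palb2 (0.896), Bub1 and 2700050L05Rik for Cldn1, and 5031439G07Rik (0.932), Rpusd1 and Slc25a10 for Cldn7. For Ocln they were Pla2g12a (0.911), Shb and Porcn.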

How the data were processed

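RNA, ribosome footprints and Msi2-crosslinked RNA were measured in mouse keratinocytes. For RNA and footprints the authors deposited counts of reads on each gene's coding sequence; per the submitters' processing notes they were made with TopHat and HTSeq on mm10, and DESeq is named, without versions. The RNA kit is directional, and the counter's strand setting is not given in the sources used here. The deposited peak lists hold a signal per region (peak height, summed over 5 libraries) and, for each library, the number of its reads in the region, also counts. Regions were called over all libraries together; cutadapt, Novoalign and mm10 are named in the submitters' processing notes, and the peak caller is not given in the sources used here.

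Lines of the RNA table that name no gene (no feature 32.3 to 35.2%, ambiguous 0.175 to 0.228% and several alignments 13.4 to 24.5% of a library) were left out. No 2 libraries were identical. The counts were fitted with edgeR 4.0.16 under R 4.3.3. Genes passed filterByExpr at 10 counts (15 in total), libraries were scaled by TMM, and the robust quasi-likelihood F test was adjusted by Benjamini-Hochberg over all genes tested, at 0.05. Each assay had its own fit by group, with no replicate block, and translational efficiency as the interaction over 12 libraries. Fold changes are Msi2 shRNA over scrambled. The tests were tested on simulated data with known changes. The alternatives were DESeq2 1.42.0 (size factors, Wald test), upper-quartile factors, limma-voom (limma 3.58.1), leaving out the filter or asking for 10 CPM in 3 libraries, the replicate block, 1 fit over all 12 libraries, removal of each library's loess trend (span 0.5) with gene span, and leaving out each library; for peaks, the longer list, a height of at least 20, a read in all 5 libraries and assignment by position. The shallowest footprint library holds 512256 gene counts, where 3 counts are 5.86 CPM.

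The genes and lists were chosen with earlier results of these data known. Named genes are the 6, Msi2, the 5 called genes of the wider list with the smallest p per assay and direction, list genes with a 3' UTR region, and the 3 most correlated genes per member among those averaging at least 3 in log2 CPM of RNA (prior count 2). Marveld2, other claudins and markers are named outside that rule, after their values were seen. A gene that the rule names is not reported here. Positions and promoters came from RefSeq tables on GRCm38.p6; 19008 of 20572 symbols matched the gene table, and 38 of the 1199 symbols in the peak list were not in the count tables. Levels per length of coding sequence were planned but coding lengths were not used here, so CPM levels are not compared between genes. The sequences under the CLIP regions were not analysed here. No columns were left unmapped.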

Additional observations from a re-analysis of the deposited data

Results flagged for a closer look

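In the 5 CLIP libraries, the undiluted RNase library stood apart from the others by Dixon's test for 2 genes. For Cldn4 it held 0.358% of that library's listed reads (7 of 1954), against 0.0423 to 0.0857% in the other 4. For Tjp1 it held 0.0512% (1 of 1954 reads), against 0.0113 to 0.0163% in the other 4, and its interval of 0.00130 to 0.285% covers theirs. That library is also the shallowest of the 5, with 1954 listed reads against 17760 to 26026. Dixon's test takes the values as equally precise, and its usual chance rate of about 1 in 20 groups does not hold for these shares. For Tjp1, 1 read in that library is already a larger share than any of the other 4, so that flag rests on 1 read.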

How the results depend on the processing

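Of 312 recomputed log2 fold changes of the 6 genes, 293 kept their direction and their side of the threshold; 2 lost a call, 7 gained one and 10 turned sign, all 10 in values that had not passed the test. The RNA calls (3 higher, 1 lower) held under every alternative run. No scaling moved the median of all genes by over 0.1. The causes of the changes below were not tested. The labels do not say whether libraries of the same replicate number were paired, and correlations over so few libraries cannot settle it. Same-numbered libraries of the 2 groups had correlations of deviations of 0.06, -0.28 and -0.23 in RNA and of 0.05, 0.03 and -0.00 in footprints. Differently numbered RNA libraries had -0.109 to 0.305. The highest were Msi2 shRNA replicate 2 with scrambled replicate 3 (0.305) and Msi2 shRNA replicate 3 with scrambled replicate 2 (0.241). What these pairs share was not tested. The replicate block changed no call of the 6 genes; with it Cldn7 footprints were -0.034, and 8 genes in all were called higher in efficiency, against 14 without it.

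In footprints, 1 of the 6 genes was called higher, Cldn4, under limma-voom (0.35) and with the trend with gene span removed (0.41), and Cldn7 was -0.010 with upper-quartile factors. DESeq2's Wald test called 481 genes higher and 373 lower in footprints, against 786 and 662, and 5 of the wider list higher, against 10. In RNA, limma-voom called 5 of the wider list lower, against 3. Leaving out 1 library gave Cldn1 -0.090 to 0.20, Cldn4 0.28 to 0.43, Cldn7 -0.12 to 0.19 and F11r -0.46 to -0.41 in footprints, and Cldn7 -0.028 to 0.23 in RNA. Of the 6 genes, 0 to 1 were then called higher and 0 to 1 lower in footprints; of the wider list, 6 to 10 higher and 1 to 2 lower in footprints and 3 to 5 lower in RNA; of all genes, 463 to 885 higher and 350 to 749 lower in footprints.

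In efficiency, 1 of the 6 genes and of the wider list, Tjp1, was called lower under DESeq2's Wald test (-0.69), limma-voom (-0.66) and no filter (-0.71), and F11r was 0.006 with the trend with gene span removed. All genes called were 14 higher and 8 lower; they were 61 and 38 under DESeq2's Wald test, 52 and 14 under limma-voom and 46 and 78 with no filter. With upper-quartile factors 5 were higher and 13 lower, and with DESeq2 size factors 13 lower. Higher calls were 3 with the filter of 10 CPM, 28 with the span trend removed and 7 without the shallowest footprint library of each group, an alternative chosen after seeing the data. Leaving out 1 library gave Tjp1 -0.86 to -0.61, Cldn1 -0.59 to -0.26, Ocln -0.41 to -0.15, Cldn4 -0.27 to 0.0011 and Cldn7 -0.29 to 0.095; 0 to 1 of the 6 genes and of the wider list were called lower, and 0 to 94 of all genes higher and 0 to 149 lower.

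At a height of at least 20, Cldn1 had 1 region, Cldn4, Tjp1 and F11r had 0, and the wider list 11 of 30. With a read in all 5 libraries Cldn1 had 2 and the wider list 13. Leaving out 1 CLIP library put the 6 genes' share of listed reads at 0.223 to 0.285%. The low footprint depth limits Cldn7 and Ocln most.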

Other observations

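Marveld2 (tricellulin, a relative of occludin at the points where several cells meet) was picked out after its values were seen. Its footprints were 19.1, 30.1 and 23.5 CPM in Msi2 shRNA cells and 11.9, 13.4 and 7.05 CPM in scrambled cells, on 5 to 40 counts a library, a log2 fold change of 0.93 ± 0.29 (SE; adjusted p = 0.0239 by edgeR's quasi-likelihood test). Its RNA was 13.6, 14.9 and 10.1 CPM in Msi2 shRNA cells and 12.6, 11.3 and 12.8 CPM in scrambled cells (0.06 ± 0.17; adjusted p = 0.793). The efficiency change of 0.89 ± 0.34 did not pass (adjusted p = 0.269). The footprint call ended under the DESeq2 Wald test (adjusted p = 0.0846), without Msi2 shRNA replicate 2 (0.0722), without Msi2 shRNA replicate 3 (0.0949), without scrambled replicate 1 (0.0746) and without the shallowest library of each group (0.0987). Cgnl1 (paracingulin, a relative of cingulin), also picked out after its values were seen, had an RNA log2 fold change of 2.21 ± 0.47 (adjusted p = 0.00113), on 40 to 78 counts a library in Msi2 shRNA cells and 3 to 22 in scrambled cells. Its footprints also rose (1.31 ± 0.44, adjusted p = 0.0350), on 6 to 17 counts a library in Msi2 shRNA cells and 3 to 10 in scrambled cells. That call ended under several settings, among them the DESeq2 Wald test (adjusted p = 0.158).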
